A study of Mus musculus with 4 samples.

Results

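The genes described here are 10 antioxidant enzyme genes: the peroxiredoxins Prdx1, Prdx2, Prdx3, Prdx4, Prdx5 and Prdx6, thioredoxin (Txn1), the glutathione peroxidases Gpx1 and Gpx4, and the mitochondrial superoxide dismutase Sod2. They were chosen by family and function after a higher level of Prdx5 on high-fat diet (HFD) had been seen in these data, and the question was whether the other 9 share it. All 10 have a row among the 11820 genes of the deposited matrix. Because the diet difference of Prdx5 prompted the choice, its diet values are a description without a test. Its change along the stages of maturation was tested.

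Monocytes and macrophages were sorted from the colon of male C57/Bl6N mice, 6 to 7 weeks old, after 1 week on normal chow (mice 9 and 11) or on a coconut-based HFD labelled 60% (mice 1 and 3). The sort kept live CD45+ Lin- CD11b+ CD24- cells with Ly6C or CD64, so it sets which cells can be seen. Each mouse filled 1 well of a droplet device in which captured RNA is tagged with unique molecular identifiers (UMIs). Mice, not cells, were the replicates (n = 2 per diet), and p-values speak of these mice only. The tests took part of the spread of each gene from all genes tested, so a small p-value does not rest on the mice alone. Where stages were compared, the mouse was a block, and the spread is that of the stage differences within mice.

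Peroxiredoxins reduce hydrogen peroxide and organic peroxides with a reactive cysteine. Most of them are restored by thioredoxin, which is recharged by thioredoxin reductase with NADPH, while glutathione peroxidases draw on glutathione. Sod2 turns superoxide into hydrogen peroxide inside mitochondria and so acts ahead of the peroxidases. Macrophages make superoxide with their NADPH oxidase, and Sod2 is a well-known target of inflammatory signalling.

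The genes lie on 8 chromosomes (GRCm38, GENCODE M21) and all are protein coding. Prdx5 (chr19:6906697-6910106, minus strand) shares 409 exonic bases, 19.1% of its exonic length, with Trmt112 on the other strand. The log2 diet difference of Trmt112 in C1q-high cells was 0.09 (SE 0.16, edgeR adjusted p = 0.722). In the cells called stage I below it was -0.001 (SE 0.27, edgeR adjusted p = 0.998). In those called stage III it was 0.88 (SE 0.45, edgeR adjusted p = 0.364). The part of Trmt112 in the values of Prdx5 was not tested. Prdx2 (chr8:84969587-84974834, plus strand) shares 173 exonic bases with Junb and 177 with Rnaseh2a, both on the other strand. Junb was lower on HFD in C1q-high cells (log2 difference -0.72, SE 0.13, edgeR adjusted p = 0.00694), and its part in the values of Prdx2 was not tested. Prdx2, Prdx6, Txn1 (chr4:57943373-57956411, minus strand) and Gpx4 have an annotated processed pseudogene that has no row in the matrix, and how reads matching both were assigned was not tested. The values of these 4 genes are uncertain to that extent. Pseudogenes were looked for only by the name of the gene, so the other genes were not cleared of pseudogenes with other names.

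Promoters of 9 of the 10 genes (all but Prdx6) were searched on both strands for 4 motifs, in the RefSeq window from 250 bases before to 50 bases after the start site (GRCm38.p6). The antioxidant response element core TGACNNNGC, which the factor NRF2 binds, was found in Prdx1 alone of these 9 and in 12.4% of all 32851 promoters. The AP-1 site TGANTCA was likewise found in Prdx1 alone (7.81% of all promoters), and 1 of its matches overlaps the antioxidant element. The gamma-interferon activated site TTCNNNGAA was found in Sod2 alone (8.3%), and the interferon-stimulated response element core in none of the 9 (3.44%). The stretches below are shown because Prdx1 and Sod2 are among the genes that passed a diet test. Capitals mark the motif, and each is written 5′ to 3′ on the plus strand.
Prdx1 antioxidant element, chr4:116685458-116685482: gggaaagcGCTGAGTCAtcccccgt
Prdx1 AP-1 site, chr4:116685354-116685376: cgaggaaaTGACTCAaagggcag
Sod2 interferon site, chr17:13007646-13007670: tccagggtTTCCCAGAAgcaggagt
A match describes the letters in a window and is not a bound site.

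Cells were placed between monocyte and resident macrophage with marker genes that are not among the 10. Stage I held Ly6c2-positive cells low in MHC II and in C1q, stage II Ly6c2-positive cells high in MHC II and low in C1q, stage III Ly6c2-negative cells high in MHC II and low in C1q, and stage IV all C1q-high cells. These are ranges of marker scores, not cell types. Within 0.5 log2 units of the C1q threshold lay 172 of 5420 cells (3.17%), 280 cells (5.17%) lay as near to the MHC II threshold, and 566 cells (10.4%) had exactly 1 Ly6c2 UMI. In the order chow 9, chow 11, HFD 1 and HFD 3, which is kept throughout, stage I held 66, 68, 283 and 341 cells, stage III 24, 27, 97 and 168, and stage IV 764, 1849, 458 and 653. Stage II held only 3 and 19 chow cells and was described without a test, and 195 cells were in no stage. Library totals were 3824228 to 7947893 UMIs, and any pair of libraries shared 2 to 6 cell barcodes.

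Levels are UMIs per 1000000 UMIs of the sum over a mouse's cells (CPM). They count 3′ ends and were not divided by gene length. The fitted log2 differences use edgeR's TMM scaling, which sets the typical gene near 0. In stage IV the median log2 ratio of HFD to chow over all tested genes was 0.125 in CPM and -0.02 after TMM scaling, and over all cells it was 0.204 and -0.01, so a CPM ratio reads slightly higher than the fitted difference.

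Some marker values differed between the diets within a stage. In stage IV the summed C1q genes stood at 19170 and 20040 CPM on chow and at 14990 and 14040 CPM on HFD, and the 8 monocyte markers at 404, 588, 3009 and 3919 CPM. The 8 dendritic cell markers summed to 602, 364, 1085 and 788 CPM in stage III and to 77.6, 85.6, 194 and 169 CPM in stage IV, higher in both HFD mice in each. Plasma cell markers (3 of 5 in the matrix: Igha, Jchain and Sdc1) reached 40640, 26890, 8602 and 6684 CPM in stage I and 2637, 3083, 170 and 111 CPM in stage IV. In 16 cells these markers took over 5% of UMIs, and 4 cells had over 0.5% from epithelial markers. None of the 6 erythroid genes looked for has a row, so RNA from red cells, which are rich in Prdx2, was not measured here.

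**Figure D1:**
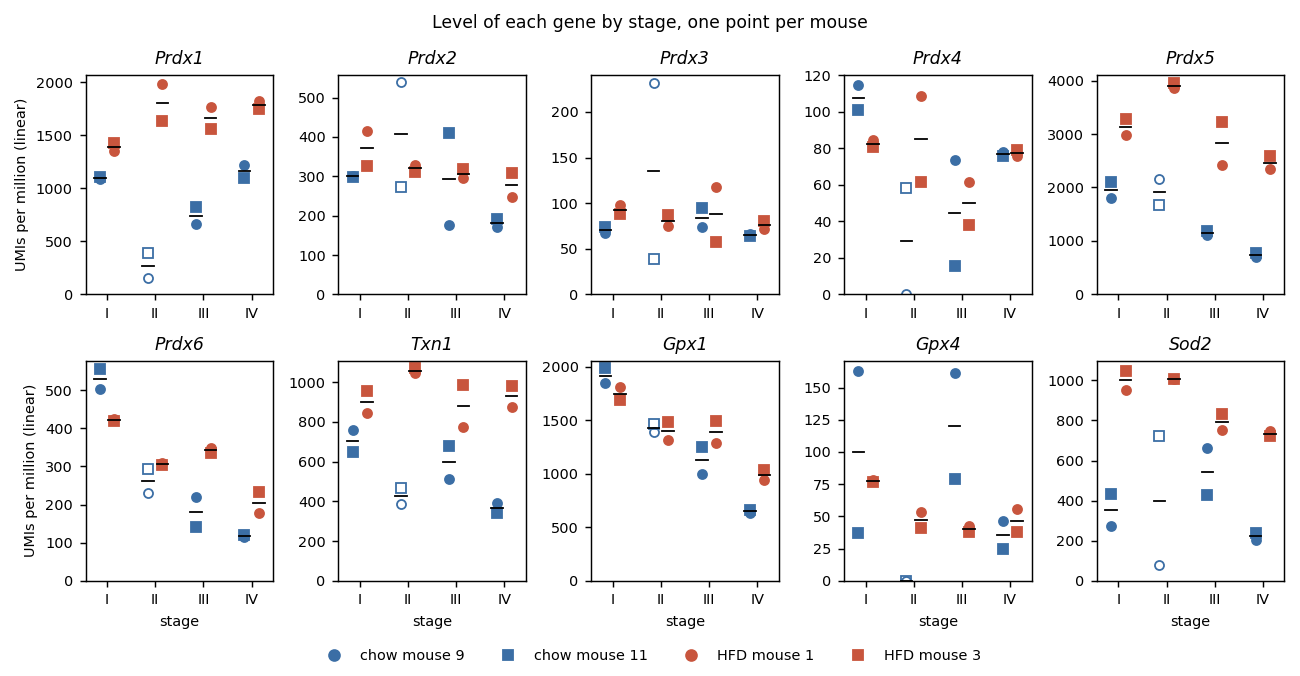
Level of each gene in CPM (linear axis) by stage I to IV, 1 point per mouse (blue chow, red HFD), with a bar at the mean of 2 mice; open symbols mark the stage II sums of 3 and 19 chow cells. In stage IV both HFD mice lie above both chow mice for Prdx5, Txn1 and Sod2, and Gpx1 and Prdx6 stand lower in stage IV than in stage I.

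From stage I to stage IV, 3 of the 10 genes fell and none rose. Stages I, III and IV of the 4 mice were fitted together with the mouse as a block (edgeR quasi-likelihood test, FDR 1% over 5526 genes), and in that contrast 9.19% of all genes were lower and 9.48% higher in stage IV. Prdx6, a 1-Cys peroxiredoxin that also has phospholipase activity, stood at 502, 555, 425 and 419 CPM in stage I and at 114, 119, 177 and 233 CPM in stage IV. The stages did not overlap, and Prdx6 fell by 1.43 on the log2 scale (SE 0.20, adjusted p = 7.99e-06).

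Gpx1, the abundant cytosolic glutathione peroxidase, stood at 1846, 1986, 1805 and 1688 CPM in stage I and at 636, 657, 942 and 1033 CPM in stage IV. It fell by 1.03 (SE 0.15, edgeR adjusted p = 1.45e-05), again without overlap of the stages. Prdx6 and Gpx1 kept this call under all 16 alternatives.

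Prdx5, which resides in mitochondria, peroxisomes and the cytosol, stood at 1808, 2100, 2983 and 3288 CPM in stage I and at 696, 767, 2336 and 2591 CPM in stage IV. It fell by 0.72 (SE 0.17, edgeR adjusted p = 0.00242). Within each diet the stages did not overlap, and the gap between them was wider in the chow mice. Fitted in chow mice alone it fell by 1.20 (edgeR adjusted p = 8.68e-11), and in HFD mice alone its log2 difference was -0.24 (edgeR adjusted p = 0.106). The call was lost without chow mouse 9 (edgeR adjusted p = 0.0327), without chow mouse 11 (0.0361) and without the block (0.371).

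The remaining 7 genes did not pass the quasi-likelihood test of all 4 mice between stages I and IV. Gpx4, which protects membrane lipids from peroxidation, had a log2 difference of -0.87 (SE 0.25, edgeR adjusted p = 0.0116), and Prdx1, a cytosolic peroxiredoxin, had the one positive value, 0.39 (SE 0.17, edgeR adjusted p = 0.089). Prdx2, Prdx3, Prdx4, Txn1 and Sod2 had values from -0.40 to -0.06. Gpx4 passed by edgeR's likelihood-ratio test (adjusted p = 0.00415) and without the filter (edgeR adjusted p = 0.00296). Txn1 passed in chow mice alone (-0.73, edgeR adjusted p = 3.85e-04) and Prdx1 in HFD mice alone (0.47, edgeR adjusted p = 0.00356). Between stages I and III, where 2.59% of all genes were lower and 2.8% higher, none of the 10 passed the edgeR test, and Prdx4, Prdx5, Prdx6 and Gpx1 had an unadjusted p under 0.05, all with negative values. Other tools called 1 or 2 of them (DESeq2 Gpx1, edgeR's likelihood-ratio test Gpx1 and Prdx6). Between stages III and IV, with 1.21% of genes lower and 2.91% higher, none passed either, while Prdx1, Prdx4, Prdx6 and Gpx1 had an unadjusted p under 0.05 and neither DESeq2 nor the likelihood-ratio test called any.

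The order of the 10 genes by level also differed along the stages. In stage I Prdx5 came first, then Gpx1 and then Prdx1 on both diets, with the chow values of Prdx5 and Gpx1 overlapping. In stage IV of chow mice Prdx1 came first, followed by Prdx5, Gpx1, Txn1, Sod2, Prdx2, Prdx6, Prdx4, Prdx3 and Gpx4, with no overlap between neighbours. In stage IV of HFD mice Prdx5 came first and the rest kept that order, with Gpx1 and Txn1 overlapping, and Prdx4 and Prdx3. The 10 genes together took 3619, 3579, 7351 and 7811 CPM in stage IV and 6925, 7333, 9040 and 9397 CPM in stage I.

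Prdx5 was higher in both HFD mice than in both chow mice in every stage. Its mean in stage IV was 732 ± 50.4 CPM on chow and 2464 ± 180 CPM on HFD (SD, n = 2), and a fitted log2 difference of 1.60 (SE 0.13). In stage I the means were 1954 ± 207 and 3136 ± 216 CPM (log2 difference 0.57, SE 0.18). In stage III the levels were 1116, 1186, 2429 and 3230 CPM (log2 difference 1.27, SE 0.22).

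In stage II the few chow cells gave 2160 and 1677 CPM and the HFD cells 3851 and 3949 CPM. The chow values in stage IV were the lowest of any stage, and the ratio between diets was highest there (3.37, against 1.60 in stage I, 2.03 in stage II and 2.46 in stage III). With each cell thinned to 2000 UMIs, the median stage IV cell held 1, 1, 3 and 4 Prdx5 UMIs (2, 2, 6 and 9 before thinning), and the median stage I cell 4, 4, 5 and 6 (5, 6, 10 and 8 before thinning). The thinning left out cells below that depth, so that 689, 1536, 367 and 549 cells remained in stage IV and 55, 63, 247 and 272 in stage I.

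**Figure D2:**
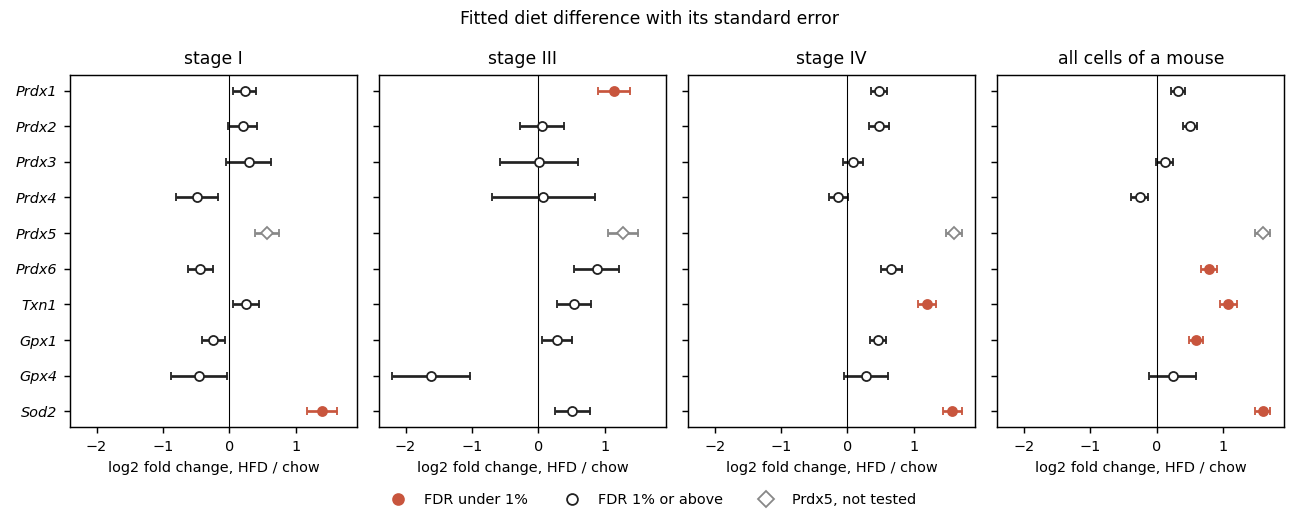
Fitted log2 difference of HFD against chow with its SE for the 10 genes in stages I, III and IV and over all cells, red where the gene passed FDR 1% and a grey diamond for Prdx5, which was not tested. Sod2 passed in stages I and IV, Txn1 in stage IV and Prdx1 in stage III.

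In stage IV, 2 of the other 9 genes rose on HFD at FDR 1%, Sod2 and Txn1, against 5.35% of all 5065 genes tested that were higher and 5.13% lower. The 2 diets drew on different clusters of cells, formed without the 10 genes. Cluster 1, with 99.0% of its cells in stage IV, held 576, 1374, 110 and 117 cells, and cluster 6, with 76.8% in stage IV, held 12, 18, 268 and 488. Sod2 stood at 203, 241, 747 and 722 CPM. Both HFD mice were about alike and far above both chow mice, with a log2 difference of 1.58 (SE 0.14, edgeR adjusted p = 3.34e-04), close in size to that of Prdx5. Txn1, the electron donor of most peroxiredoxins, stood at 390, 338, 874 and 981 CPM, also without overlap (log2 difference 1.20, SE 0.14, edgeR adjusted p = 9.66e-04). The monocyte and dendritic cell markers of stage IV given above were higher in the same mice. Both genes also passed without the Ly6c2-positive cells of stage IV, and the part of the dendritic cell markers was not tested. Without HFD mouse 3 neither passed (edgeR adjusted p = 0.0126 for Sod2 and 0.0289 for Txn1), and without HFD mouse 1 Txn1 did not (0.0132), while the log2 differences stayed at 1.63 for Sod2 and at 1.14 and 1.25 for Txn1.

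The stage IV values of Prdx1, Gpx1, Prdx6, Prdx2 and Prdx3 also lay above chow in both HFD mice in CPM, without passing the quasi-likelihood test. Prdx1 stood at 1218, 1100, 1823 and 1746 CPM (log2 difference 0.48, SE 0.13, edgeR adjusted p = 0.0299). Gpx1 had a log2 difference of 0.46 (SE 0.12, edgeR adjusted p = 0.0275) and Prdx6 of 0.66 (SE 0.16, edgeR adjusted p = 0.0193). Prdx2, the cytosolic peroxiredoxin best known from red cells, stood at 171, 191, 247 and 309 CPM (log2 difference 0.47, SE 0.15, edgeR adjusted p = 0.055). At FDR 1% Prdx6 passed by edgeR's likelihood-ratio test (adjusted p = 0.00421) and without the filter on low counts (edgeR adjusted p = 0.00921), and Prdx1 passed with stages from clusters (edgeR adjusted p = 0.00911).

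Prdx3 and Prdx4 gave low levels and small differences in stage IV, and Gpx4 a low level and an uncertain difference. Prdx3, the mitochondrial peroxiredoxin, stood at 66.2, 63.8, 72.1 and 80.3 CPM (log2 difference 0.09, SE 0.15, edgeR adjusted p = 0.724). Prdx4, the peroxiredoxin of the endoplasmic reticulum, stood at 78.2, 76.1, 75.9 and 79.2 CPM, with the diets overlapping (log2 difference -0.14, SE 0.15, edgeR adjusted p = 0.54). Gpx4 stood at 46.1, 24.4, 56.0 and 37.5 CPM, also overlapping (log2 difference 0.28, SE 0.33, edgeR adjusted p = 0.589). With 1 mouse left out, the difference of Gpx4 ranged from -0.16 to 0.78.

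Counted by overlap of the mice, 7 of the other 9 genes were higher in both HFD mice in stage IV and none lower, against 42% and 23.2% of all genes. On TMM-scaled values 6 were higher and 1, Prdx4, was lower, against 31.1% and 32.4% of all genes, with Prdx3 overlapping. The median log2 difference of the 9 genes was 0.47, and that of all genes -0.02.

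In stage I, 1 of the other 9 genes rose on HFD, Sod2, where 0.746% of 4556 genes were higher and 0.241% lower. Its levels were 273, 431, 953 and 1049 CPM, without overlap (log2 difference 1.40, SE 0.22, edgeR adjusted p = 8.06e-04). Leaving out a mouse leaves 1 library in its diet. A gene's own spread then comes from the 2 mice of the other diet, and the lone library is assumed to vary like them. On that assumption the call was not lost without any 1 mouse (log2 difference 1.10 to 1.77), and it was lost with stages taken from clusters of cells (log2 difference 1.04, edgeR adjusted p = 0.015). The monocyte markers of stage I were higher in both HFD mice as well (15600, 21240, 28160 and 26270 CPM), and their part in the difference was not tested. Sod2 was the one gene of the 9 that passed in both stages I and IV.

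The rest of the stage I values lay within 0.5 log2 units of 0. Txn1 stood at 760, 647, 846 and 957 CPM (log2 difference 0.25, SE 0.19, edgeR adjusted p = 0.63), without overlap but with a narrower gap than in stage IV. Prdx6 and Gpx1 were lower in both HFD mice than in both chow mice (log2 differences -0.43 and -0.24, edgeR adjusted p = 0.325 and 0.609). Gpx4 was at 163 CPM in chow mouse 9, from 34 UMIs, and at 36.7 CPM in chow mouse 11, from 8 UMIs.

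Prdx4 was lower in both HFD mice in stage I, at 115, 101, 84.6 and 80.8 CPM (log2 difference -0.49, SE 0.31, edgeR adjusted p = 0.545). Without the cells that carried plasma cell or epithelial markers, its difference was -0.08 (SE 0.36, edgeR adjusted p = 0.968). In the 16 plasma-marker cells Prdx4 stood at 450.6 CPM and in all others at 73.8 CPM, the one gene of the 10 that was higher there. In all, 5 genes were higher and 3 lower in both HFD mice in stage I, in CPM and on TMM-scaled values, against 29.1% and 15.5% of all genes in CPM and 22.4% and 21.4% on TMM-scaled values.

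In stage III the chow sums came from 24 and 27 cells with 68087 and 63256 UMIs, and 1 of the other 9 genes, Prdx1, rose on HFD (0.789% of 4562 genes were higher and 0.811% lower). Prdx1 stood at 661, 822, 1763 and 1560 CPM (log2 difference 1.14, SE 0.24, edgeR adjusted p = 0.00285). Both HFD mice lay far above both chow mice, yet the call was lost when any 1 mouse was left out and under DESeq2 (adjusted p = 0.0275). The log2 difference of Prdx1 was 0.99 to 1.32 without 1 mouse and 1.11 under DESeq2. The dendritic cell markers given above moved with it. In stage III the monocyte markers were also higher in both HFD mice (2702, 4553, 6776 and 7437 CPM) and the resident macrophage markers lower (2423, 2925, 948 and 1068 CPM). The part of these markers in the difference was not tested.

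With stages II and III merged, an alternative added after seeing the data, the log2 difference of Prdx1 was 1.47 (edgeR adjusted p = 5.85e-05), with 0.859% of all genes higher. Sod2 stood at 661, 427, 753 and 832 CPM in stage III (log2 difference 0.51, SE 0.26, edgeR adjusted p = 0.355). Its difference was 0.25 to 0.87 without 1 mouse. Gpx4 stood at 162, 79.0, 42.2 and 38.0 CPM, from 11, 5, 15 and 19 UMIs (log2 difference -1.62, SE 0.58, edgeR adjusted p = 0.133). On both scales 5 genes were higher and 1, Gpx4, lower in both HFD mice, against 30.3% and 18.1% of all genes in CPM and 29.1% and 19.1% on TMM-scaled values.

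**Figure D3:**
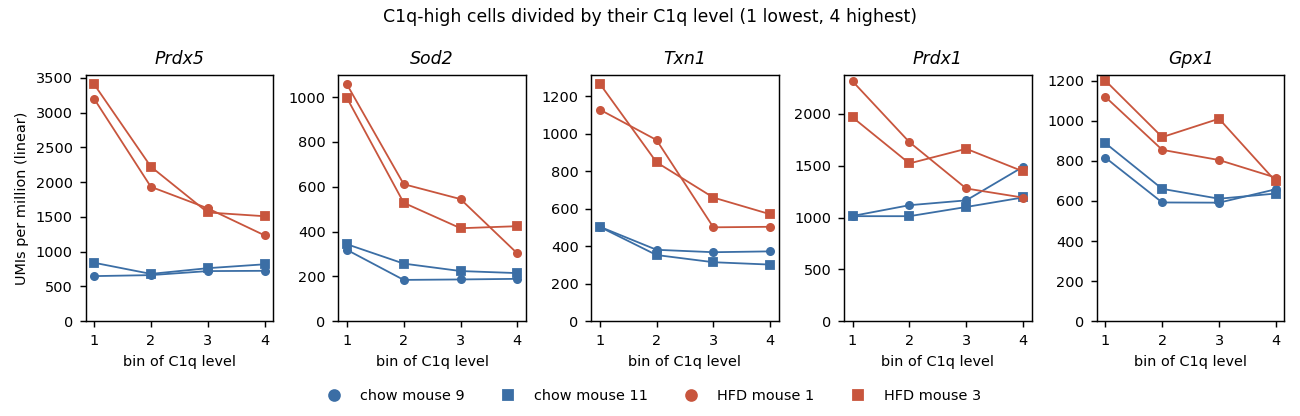
Level of Prdx5, Sod2, Txn1, Prdx1 and Gpx1 in CPM in 4 bins of the C1q level among C1q-high cells, 1 line per mouse (blue chow, red HFD). On HFD Prdx5 stood at 3201 and 3410 CPM in the lowest bin and at 1236 and 1510 CPM in the highest, while the chow mice stayed between 649 and 842 CPM.

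Since stage IV cells of HFD mice held less C1q, they were also compared within 4 bins of the C1q level with equal numbers of cells over the 4 mice, an alternative added after seeing the data. In the lowest bin the C1q sums were 9054, 8924, 7557 and 7413 CPM, and in the highest 26090, 26120, 27010 and 26520 CPM. C1q was most closely matched in the middle bins. It stood at 15980, 16090, 16000 and 15670 CPM in bin 2 and at 20440, 20550, 20460 and 20350 CPM in bin 3. Ly6c2 was not matched there. It was higher in both HFD mice than in both chow mice in bins 2 to 4. In bin 3 it stood at 3.748, 11.12, 40.35 and 84.97 CPM. In the lowest bin its diets overlapped. The part of Ly6c2 in the differences between diets within bins was not tested. Bin 2 held 234, 495, 76 and 126 cells, and bin 3 held 219, 559, 72 and 81. Prdx5 had log2 differences of 2.00, 1.51, 1.00 and 0.80 from the lowest bin to the highest. Both HFD mice were above both chow mice in each bin.

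Sod2 rose in the first 3 bins, with log2 differences of 1.48, 1.25 and 1.12 (edgeR adjusted p = 6.92e-05, 0.00281 and 0.00657), and stood at 189, 215, 302 and 424 CPM in the highest (log2 difference 0.81, edgeR adjusted p = 0.0713). Txn1 rose in the lowest 2 bins (1.10 and 1.19, edgeR adjusted p = 4.77e-04 and 0.00126) and had values of 0.67 and 0.65 in the others (0.07 and 0.11). Prdx1 rose in the lowest bin alone (0.93, edgeR adjusted p = 0.00198), and in the highest its diets overlapped (-0.05, edgeR adjusted p = 0.947). Of all genes, 4.02%, 2.68%, 1.2% and 0.669% were higher on HFD from the lowest bin to the highest. Whether the difference itself changed across bins was not tested.

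Among C1q-high cells without a Ly6c2 UMI, where 4.23% of all genes were higher on HFD, Sod2 and Txn1 passed again (log2 differences 1.46 and 1.19, edgeR adjusted p = 6.24e-04 and 0.0011). Prdx5 had a difference of 1.46 there. The C1q sums of these cells still differed, at 19190, 20200, 15920 and 15430 CPM.

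The test of the diet difference between stages I and IV called none of the 9 genes by edgeR at FDR 1%, and 0.966% of 5382 genes passed in either direction. Prdx6 (1.05, SE 0.21, adjusted p = 0.016), Txn1 (0.91, SE 0.17, adjusted p = 0.0138) and Gpx1 (0.66, SE 0.17, adjusted p = 0.0619) had an unadjusted p under 0.05. The likelihood-ratio test called these 3 and DESeq2 none. The value of Sod2 was 0.13 (SE 0.21, edgeR adjusted p = 0.819), and that of Prdx5, not tested, was 0.99 (SE 0.17).

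**Figure D4:**
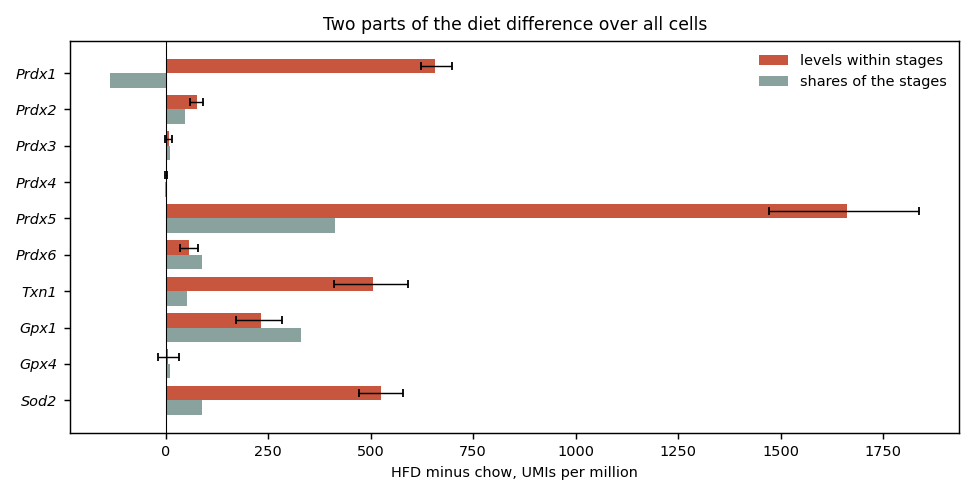
HFD minus chow difference over all cells of each gene in CPM, divided into a part from levels within stages and a part from the shares of the stages; bars are means over the 4 chow and HFD pairs and whiskers give the lowest and highest pair of the levels part. Of the 2076 CPM of Prdx5, 1663 came from levels and 413 from shares. A difference in the make-up of cells within a stage counts as levels.

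Summed over all cells of a mouse, 4 of the other 9 genes rose on HFD, where 7.67% of 4955 genes were higher and 8.58% lower. Stage IV held 84.5%, 92.4%, 47.4% and 42.2% of the cells, so these sums mix the shares of the stages with the levels inside them. The median stage IV cell held 4215, 3871, 3782 and 4130 UMIs, with the diets overlapping. The genes were Sod2 (log2 difference 1.60, SE 0.12, edgeR adjusted p = 3.35e-04), Txn1 (1.08, SE 0.13, adjusted p = 0.00173), Prdx6 (0.79, SE 0.12, adjusted p = 0.00395) and Gpx1 (0.60, SE 0.10, adjusted p = 0.00611).

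Prdx6 stood at 154, 135, 288 and 293 CPM and Gpx1 at 751, 716, 1291 and 1298 CPM, both without overlap. Prdx2 passed over all cells by edgeR's likelihood-ratio test (adjusted p = 0.00575) and without the filter (edgeR adjusted p = 0.00836). Without HFD mouse 3 only Sod2 passed, and without HFD mouse 1 or chow mouse 11 Sod2 and Txn1 did. In CPM, 7 genes were higher in both HFD mice and none lower, against 50.4% and 21.4% of all genes. On TMM-scaled values 7 were higher and Prdx4 lower, against 34% and 35.7%.

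The difference over all cells was divided into levels within stages and shares of stages. Each stage was taken as a unit, so a difference in the make-up of its cells counts as levels. In stage IV the clusters and the C1q level given above differed between the diets, and their part in the levels was not tested. Levels gave 80.1% of the difference of Prdx5, 85.6% of that of Sod2 (614 CPM) and 90.6% of that of Txn1 (557 CPM). For Gpx1 and Prdx6, which fall along the stages, levels gave 41.2% of 561 CPM and 39.5% of 146 CPM, and the shares the rest. For Prdx1 the levels gave 657 CPM and the shares -135 CPM.

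**Figure D5:**
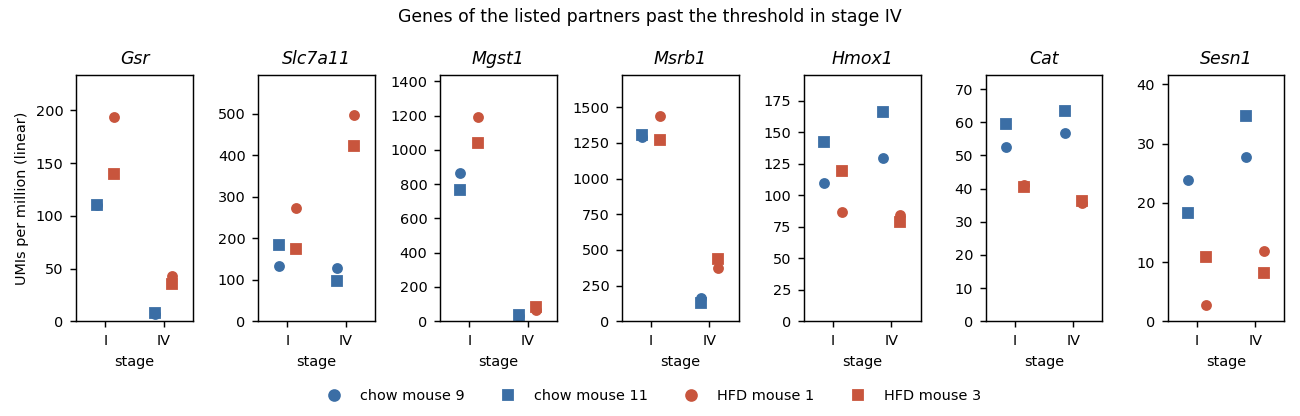
Levels of Gsr, Slc7a11, Mgst1, Msrb1, Hmox1, Cat and Sesn1 in CPM in stages I and IV, 1 point per mouse (blue chow, red HFD). In stage IV the first 4 are higher and the last 3 lower in both HFD mice.

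Other genes of the same systems were read from fixed lists. In stage IV, 3 of 10 tested genes of the glutathione system rose on HFD and none fell, against 5.35% and 5.13% of all genes. In stages I and III none of the 9 and 8 tested passed, where 0.746% and 0.789% of all genes rose and 0.241% and 0.811% fell. Slc7a11, the cystine importer, stood at 128, 96.8, 497 and 422 CPM (log2 difference 1.89, SE 0.18, edgeR adjusted p = 4.86e-04). Gsr, glutathione reductase, stood at 6.71, 7.96, 43.1 and 35.3 CPM (2.24, SE 0.26, edgeR adjusted p = 9.93e-04). Its UMIs were 23, 60, 80 and 99, so the filter of a UMI in 5% of cells was met only through the HFD cells. Mgst1, a microsomal glutathione transferase, stood at 33.6, 34.5, 64.1 and 81.7 CPM (0.96, SE 0.18, adjusted p = 0.00696). Mgst1 and Gsr were 4.08 and 2.59 log2 units lower in stage IV than in stage I, and the monocyte markers of stage IV given above were higher on HFD. In C1q-high cells without a Ly6c2 UMI, where 4.23% of all genes were higher on HFD, Slc7a11 alone passed of the 9 tested in this list.

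Of 16 tested other antioxidant enzymes, 1 rose and 2 fell in stage IV, where 5.35% of all genes rose and 5.13% fell. Msrb1, a methionine sulfoxide reductase, stood at 160, 127, 374 and 436 CPM (log2 difference 1.35, SE 0.16, edgeR adjusted p = 0.00114), and its diet difference was 1.37 higher in stage IV than in stage I (edgeR adjusted p = 0.00183). Hmox1, heme oxygenase 1, stood at 129, 166, 84.5 and 78.5 CPM and fell by 1.01 (SE 0.17, edgeR adjusted p = 0.00468). Cat, catalase of the peroxisome, stood at 56.9, 63.3, 35.5 and 36.4 CPM and fell by 0.89 (SE 0.17, edgeR adjusted p = 0.00784). In C1q-high cells without a Ly6c2 UMI, Msrb1 and Hmox1 passed again and Cat did not.

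Of 7 tested thioredoxin and peroxiredoxin partners 1 fell in stage IV, where 5.13% of all genes did, and none rose. Sesn1, a sestrin, fell by 1.83 (SE 0.29, edgeR adjusted p = 0.00343), from 27.7 and 34.6 CPM on chow to 11.8 and 8.20 CPM on HFD. Its UMIs were 95, 261, 22 and 23, so the filter of a UMI in 5% of cells was met only through the chow cells. None of the 8 NADPH supply genes, the 7 NRF2 pathway regulators or the 7 genes of NADPH oxidase and nitric oxide synthase passed in stage IV. Over all cells, where 7.67% of all genes rose and 8.58% fell, 5 of 10 glutathione genes rose, with the glutaredoxins Glrx and Glrx2 beside Gsr, Mgst1 and Slc7a11. Of 8 NADPH supply genes Me2 and Taldo1 rose and Idh2 fell, and of 16 other antioxidant enzymes Msrb1 rose and Hmox1, Cat and Blvrb fell. Of 7 NRF2 pathway regulators Sqstm1 fell, and so did Nfe2l2, which encodes NRF2, by 0.65 (SE 0.12, edgeR adjusted p = 0.00772).

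Along the stages 9.19% of all genes fell from stage I to stage IV and 9.48% rose. Of 8 tested NADPH supply genes 5 fell and 1, Idh2, rose, with Me2 (malic enzyme 2) and Nadk (NAD kinase) lower by 1.71 and 1.65 log2 units in stage IV (edgeR adjusted p = 7.03e-05 and 1.49e-07). Of 10 glutathione genes 4 fell (Mgst1, Gsr, Gstm1 and Mgst3) and Gstt2 rose. Gstt2 had 0, 2, 8 and 10 UMIs in stage I and 132, 203, 96 and 89 in stage IV. It did not meet the filter of a UMI in 5% of cells in stage I, so its rise is a description. Of 16 other antioxidant enzymes Msrb1 fell, by 2.28 (SE 0.21, edgeR adjusted p = 1.09e-08), and 4 rose. Those 4 were Blvrb, which reduces biliverdin (1.60, SE 0.17, edgeR adjusted p = 1.49e-07), the selenium carrier Selenop, and the ferritin chains Fth1 and Ftl1. Rac2, a small GTPase that takes part in the NADPH oxidase, fell by 0.81 (SE 0.13, edgeR adjusted p = 6.71e-05). Prdx6, Gpx1 and Prdx5 were thus lower in stage IV together with Gsr and Mgst1, while the ferritin genes went the other way.

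Over the 12 sums of stages I, III and IV, genes whose levels closely resembled those of Prdx5 among 2533 genes of at least 50 CPM were Ifi205 (Pearson r = 0.984), Zbp1 (0.982), Magohb (0.967) and Ndufb5 (0.966). Of the other 9 genes, Txn1 came closest (r = 0.938), followed by Sod2 (0.83), Prdx6 (0.747), Gpx1 (0.731), Prdx2 (0.694), Prdx1 (0.616), Prdx3 (0.313), Prdx4 (0.105) and Gpx4 (0.02). Among the 2533 genes Txn1 ranked 20, Sod2 148 and Prdx6 309, and the rest ranked from 349 to 1774. The sums share libraries, 3 from each mouse, so these values describe likeness and carry no test.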

How the data were processed

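The authors deposited a matrix of UMI counts per gene and cell, made with kallisto 0.46.0 and BUStools 0.39.2 (Ensembl 97, mm10). They had removed cells of low quality, genes of low abundance and cells that automatic annotation placed outside monocytes and macrophages. The counts were summed per mouse and stage. C1q and MHC II sums on the scale log2(CPM + 100) were divided by Otsu's thresholds (2384 and 15040 CPM), and Ly6c2 positivity needed 1 UMI. Sums of at least 20 cells per mouse were tested with edgeR 4.0.16 (R 4.3.3, TMM, quasi-likelihood) on genes above 1 CPM in 2 sums and with a UMI in 5% of cells, with Benjamini-Hochberg adjustment over all genes and an FDR of 1%. An exact permutation test of 2 mice against 2 cannot give a two-sided p under 0.33. Stage contrasts had the mouse as a block, since each mouse gave all stages. In these contrasts a gene could meet the filter of a UMI in 5% of cells in any of the stages fitted. Scrublet marked 38 cells (0.701%) as doublets, which were kept and removed as an alternative. The code was tested on simulated data.

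All 10 genes were named, with the listed partner genes that passed (at most 5 per list) and, of the 5 genes most like Prdx5 by Pearson correlation of log2(CPM + 1), 4. Some items that these rules name are not reported here. The members and lists were chosen with earlier results of these data known. Alternatives covered DESeq2 1.42.0, normalization, filter, FDR, thresholds, clusters and leaving out mice. Removal of plasma-marker cells, merged stages, Ly6c2-negative cells, 4 bins of C1q level and TMM-scaled overlap were added after seeing the data. Partner genes that passed over all cells or between stages were chosen for naming after their values were seen.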

Additional observations from a re-analysis of the deposited data

Results flagged for a closer look

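Prdx6 and Gpx1 were lower in both HFD mice than in both chow mice in stage I and higher in both in stage IV. The diet difference of stage IV minus that of stage I was 1.05 on the log2 scale for Prdx6 (edgeR adjusted p = 0.016) and 0.66 for Gpx1 (edgeR adjusted p = 0.0619), neither past FDR 1%. In stage III both genes were also higher in both HFD mice, and the difference from stage I was 1.31 for Prdx6 and 0.52 for Gpx1. These last values were not tested. The directions were the same on TMM-scaled values. With 2 mice per diet no search for a mouse standing apart within a group was possible.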

How the results depend on the processing

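Of 1250 values of single genes under the alternatives, 1094 kept their direction and side of the threshold (for the untested diet values of Prdx5, stayed within 1 SD), 76 moved, 52 passed newly, 26 no longer passed and 2 reversed, and the cause was not tested. Both reversals set the stage I differences of Prdx6 and Gpx1 beside the sums over all cells, which gave 0.79 and 0.60. In stage I the 1 gene called became 0 with stages from clusters and 4 over all cells. In stage III the 1 gene called became 0 under DESeq2, with Ly6c2 positivity at 2 UMIs, with raised thresholds and without any 1 mouse (0 to 0), and 4 over all cells. In stage IV the 2 genes called became 3 by the likelihood-ratio test, without the filter, with stages from clusters and in C1q bin 1, 5 at FDR 5%, 4 over all cells, 1 and 0 in C1q bins 3 and 4, and 0 to 2 without 1 mouse. Over all cells the 4 became 5 by the likelihood-ratio test, without the filter and at FDR 5%, each time with Prdx2, and 1 to 4 without 1 mouse. Fits without 1 mouse of a diet take a gene's own spread from the other diet's 2 mice. Between stages I and III, 0 became 2 by the likelihood-ratio test, 1 by DESeq2, 3 without the filter, 3 at FDR 5%, 1 with raised thresholds, 3 in chow mice and 1 without plasma-marker or epithelial-marker cells. Between stages III and IV, 0 became 1 without the filter and 2 in chow mice. For the diet difference of stage IV minus stage I, 0 became 3 by the likelihood-ratio test, 2 without the filter, 2 at FDR 5%, 1 from clusters, 2 with raised and 2 with lowered thresholds, and 1 without doublets.

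Without the replicate block 2 of the 10 genes passed between stages I and IV, Prdx5 no longer, and none in the other stage contrasts, and over all genes 665, 80 and 36 passed in place of 1032, 298 and 228. Over all genes the alternatives called 21 to 805 in stage I (45 in the fit reported), 5 to 805 in stage III (73), 32 to 1145 in stage IV (531, with 1145 at FDR 5%), 155 to 1541 over all cells (805) and 18 to 185 for the difference between stages (52). Stage III and the stage contrasts were not run with stages from clusters or lowered thresholds, which left under 20 cells in a sum. The chow sums of stages I and III hold few cells, and Gpx4, Prdx3 and Prdx4 have few UMIs there.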
